A study of Homo sapiens with 6 samples.

Results

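The genes described here are the DDX and DHX helicases, taken as every row of the deposited expression table whose symbol is DDX or DHX followed by a number and at most 1 letter, without DDX5, DDX17 and DDX3Y. They number 52 of the 30741 genes in the table, 36 with a DDX and 16 with a DHX symbol. The RNA came from 6 libraries labelled as MOLM-13, an established human acute myeloid leukaemia line that carries a KMT2A fusion, given as wild type in the labels. Of these, 3 were exposed for 48 h to 20 nM TSN, taken here as toosendanin, the plant triterpenoid that the series title names, and 3 to the solvent DMSO. All 6 share the line, the growth medium and the culture time, and nothing in the labels says whether 1 clone was used. Groups came from the sample titles, since the treatment label reads DMSO on every sample, and the 3 columns that carry no TSN in their name were read as DMSO, which limits each comparison below. The title of the series asks whether the compound acts through the helicase DDX5 and MYC to lower protein synthesis, and the members compared here are the other helicases of that family.

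Most DDX proteins are DEAD-box helicases, which use ATP to open short RNA duplexes or to strip proteins from RNA, and bind RNA without moving along it. The symbol rule also takes others, such as the DNA helicase DDX11. DHX proteins, or DEAH-box helicases and their relatives, pull on single-stranded RNA and move along it, often switched on by a G-patch cofactor. In growing cells many members serve as steps of ribosome assembly in the nucleolus or of the splicing cycle. Others carry mRNA out of the nucleus, act in translation and decay, work in mitochondria or sense viral RNA.

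Values are FPKM, that is fragments for each kilobase of exon after scaling for depth. Levels of different genes can be set side by side only roughly, since some low values named below may understate a level. The step between low values gave an estimated depth of 37151602 to 50407596 fragments per library, at which 1 fragment on 1 kb of exon was worth 0.0198 to 0.0269 FPKM. Of 10 myeloid markers, 8 reached 1 FPKM, with MPO, the myeloperoxidase of primary granules, at 1989 to 3668 FPKM. MEIS1, a homeobox gene usually high in cells with a KMT2A fusion, stood at 0.14 to 0.47 FPKM, and HOXA9, its partner, at 0.61 to 1.13 FPKM. Those low levels go against the label as far as these genes go, and whether they understate the true level was not tested. MPO itself was at 3413 to 3668 FPKM in DMSO and 1989 to 2041 FPKM in TSN, while the other 9 myeloid markers summed to 127 to 152 FPKM in DMSO and 156 to 232 FPKM in TSN. No erythroid marker reached 1 FPKM, while 3 lymphoid markers, led by CD79A at 4.48 to 10.75 FPKM, and 1 epithelial marker, EPCAM at 3.22 to 3.98 FPKM, did. The summed level of the lymphoid list was 6.88 to 8.17 FPKM in DMSO and 8.16 to 16.4 FPKM in TSN. The part of these markers in the results below was not tested. In bulk RNA, fewer cells of a type and less RNA per cell cannot be told apart.

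TSN 3 and DMSO 3 stood apart from the other libraries of their groups in these genes. Over the 44 members tested, TSN 3 was the lowest of the TSN libraries in 36 (81.8%), against 61.9% of all genes tested. DMSO 3 was the highest and TSN 3 the lowest of its group in 28 members (63.6%), against 46.4% of all genes. Across all genes, those of this pattern had a median exon length of 6332 bases and a median GC content of 43.7%. The opposite pattern went with 2981 bases and 56.4% GC. The part of length and base content in the results was not tested beyond the alternatives given below, and the counts over all members and for the larger roles are also given without these 2 libraries.

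With TSN, 6 helicase genes fell, and 1 was higher that was tested only because it reached the filter with TSN. DHX34, DHX37, DDX10, DDX31, DDX28 and DHX30 were lower by limma at an adjusted p under 0.05, and DHX58 was higher. The 6 lower genes are 13.6% of the 44 members tested, against 7.2% of all 11440 genes tested, and the 1 higher gene stands against 7.71%. With the added bound of the series text, an absolute log2 fold change over 0.584, 5 members remained lower (6.38% of all genes) and 1 higher (6.94% of all genes). The log2 fold change was negative in 40 of 44 members, against 58.2% of all genes, counting DHX9 and DDX60L, whose difference rounds to 0. At an unadjusted p under 0.05, 20 members were lower, against 17.1% of all genes. The median log2 fold change was -0.43 over the members and -0.10 over all genes. In 25 members every TSN value lay below every DMSO value (22.9% of all genes), and in 2 every TSN value lay above (16.2% of all genes). Without TSN 3 and DMSO 3, 19 of 43 members were lower at an unadjusted p under 0.05 (21% of all genes) and 9 were lower with the added bound (9.36%). Every TSN value then lay below every DMSO value in 27 (34.9%) and above in 8 (33.5%).

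The promoters of 4 of the 6 genes that fell are shown because each holds 1 of 3 words searched near the start of the gene, and because the members moved largely in 1 direction. Sequences are from RefSeq on GRCh38.p14 and cover the 250 bases before the most 5′ start in the promoter table used here, written 5′ to 3′ on the strand of the gene. That table matched 45 of the 52 members, and DHX58, DDX12B, DDX12P, DDX18, DDX49, DDX52 and DHX33 were not matched. GENCODE 29 starts the 4 genes farther upstream, by 34 bases in DHX34, 44 in DDX10, 229 in DHX30 and 418 in DDX31. The windows therefore lie partly, and in DDX31 wholly, inside the gene as GENCODE draws it, and distances from a start hold for RefSeq only. Capitals mark the word found. It is CACGTG, the E-box bound by MYC with MAX, in DHX34 (chr19:47349065-47349314, plus strand) and DDX31 (chr9:132669984-132670233, minus strand), the palindromic word bound by NRF1 in DDX10 (chr11:108664819-108665068, plus strand), and CCGGAAGT, a word of ETS factors, in DHX30 (chr3:47802888-47803137, plus strand).
DHX34: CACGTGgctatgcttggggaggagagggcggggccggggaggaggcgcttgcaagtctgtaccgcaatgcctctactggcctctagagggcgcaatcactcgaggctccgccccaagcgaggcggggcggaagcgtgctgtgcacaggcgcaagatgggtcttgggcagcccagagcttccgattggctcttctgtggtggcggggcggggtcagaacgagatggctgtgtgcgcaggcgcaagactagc
DDX31: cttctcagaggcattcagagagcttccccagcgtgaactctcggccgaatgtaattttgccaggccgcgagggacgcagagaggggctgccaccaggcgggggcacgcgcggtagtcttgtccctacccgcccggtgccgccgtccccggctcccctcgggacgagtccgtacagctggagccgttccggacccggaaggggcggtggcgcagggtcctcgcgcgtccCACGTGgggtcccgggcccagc
DDX10: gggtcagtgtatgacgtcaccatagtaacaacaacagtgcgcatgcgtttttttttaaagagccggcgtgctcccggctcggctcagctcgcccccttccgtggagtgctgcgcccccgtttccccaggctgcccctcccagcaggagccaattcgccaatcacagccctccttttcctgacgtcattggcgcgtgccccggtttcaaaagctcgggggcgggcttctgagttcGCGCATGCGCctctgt
DHX30: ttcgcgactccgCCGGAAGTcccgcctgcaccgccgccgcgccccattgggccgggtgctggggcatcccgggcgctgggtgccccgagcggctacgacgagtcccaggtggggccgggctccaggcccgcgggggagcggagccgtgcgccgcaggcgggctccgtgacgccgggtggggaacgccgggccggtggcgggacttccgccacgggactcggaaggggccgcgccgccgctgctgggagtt
The word lies close to the RefSeq start in DDX31 and DDX10 and near the far end of the window in DHX34 and DHX30. Both strands were searched. CACGTG stood in 6 of 45 member promoters (13.3%) and in 6.46% of 27305 promoters of all genes. These 6 were DDX31, DDX54, DHX32, DHX34, DHX35 and DHX40, of which 2 were among the genes that fell. The NRF1 word stood in 2 member promoters (4.44%, against 1.13% of all), those of DDX10 and DDX11. CCGGAAGT, or ACTTCCGG on the other strand, stood in 6 (13.3%, against 3.64%), those of DDX21, DDX39B, DDX50, DDX56, DHX8 and DHX30. Each sequence shown holds 1 of the words, so none overlapped. DHX37 and DDX28 held none of the 3 in this window. Of the other promoters counted with a word, GENCODE starts DHX32 farther upstream by 15144 bases, DDX56 by 1143 and DDX39B by 445. Their windows lie wholly inside the gene as GENCODE draws it. A word is a description of the letters and not of a bound factor. The 27305 promoters were neither limited to the genes tested here nor matched for base content. Whether the higher shares are particular to helicases was therefore not tested.

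Levels ran over several orders of magnitude. DDX39A, an mRNA export helicase, had the highest mean, with 133, 137 and 110 FPKM in DMSO 1, 2 and 3 and 143, 119 and 170 FPKM in TSN 1, 2 and 3. DHX15, which takes spent spliceosomes apart, followed at 130, 127 and 157 FPKM in DMSO and 105, 120 and 61.1 FPKM in TSN. DDX56, a factor of the large ribosomal subunit, was next at 132, 126 and 109 FPKM in DMSO and 83.4, 71.7 and 107 FPKM in TSN. The ranges of these leading genes overlap, so their order is not firm. Below them, DDX21, DDX23, DDX50, DDX42 and DHX9 had means over all libraries of 62.1 to 96.0 FPKM. Both nucleolar and splicing helicases are thus among the most abundant members.

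**Figure D1:**
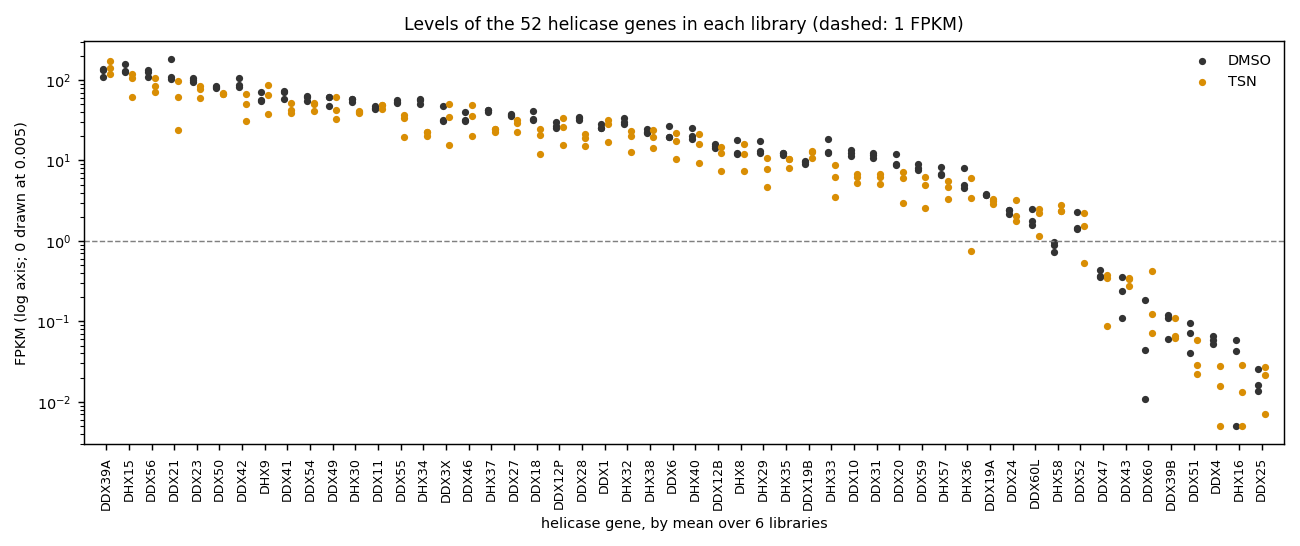
FPKM of the 52 helicase genes on a log axis, ordered by the mean over 6 libraries, with black points for the 3 DMSO and orange points for the 3 TSN libraries. The dashed line marks 1 FPKM, below which 8 genes lie in all libraries.

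Of the 52 genes, 8 did not reach 1 FPKM in 3 libraries and were not tested. DDX4, a germline helicase, DDX25, a testis helicase, and DDX43, a cancer-testis antigen, stayed below 0.36 FPKM, as is usual outside the germline. DDX60, which interferon induces, ran from 0.0107 to 0.184 FPKM in DMSO and from 0.071 to 0.427 FPKM in TSN. The other 4 are helicases that dividing cells in general use, and their low values may understate a level. DDX39B, which loads export factors on spliced mRNA, was listed at 0.0605 to 0.121 FPKM over all libraries. DHX16, which drives the first step of splicing, was at 0 in DMSO 3 and TSN 3 and at most 0.0587 FPKM elsewhere. Both lie on chromosome 6, DDX39B at 31530219 to 31542448 and DHX16 at 30653119 to 30673037 (GRCh38). DDX47 was listed at 0.0886 to 0.44 FPKM and DDX51 at 0.0225 to 0.0957 FPKM, and both act in the nucleolus. Other genes' exons cover 36.5% of the exon bases of DDX47 and 30.8% of those of DDX39B but 0.0% of those of DDX51. The part of these overlaps in the low values was not tested.

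Ribosome assembly helicases fell in part, and no tested member of that role was higher. Of 14 tested, 3 were lower by limma, 0 were higher, 9 had an unadjusted p under 0.05, all of them lower, and in 11 the groups did not overlap. Over all genes 7.2% were called lower, 17.1% were lower at an unadjusted p under 0.05 and 22.9% lay lower without overlap. The median log2 fold change of the role was -0.63, with a range from -1.26 to -0.02, against -0.10 over all genes. Without TSN 3 and DMSO 3, 8 of the 14 were called lower (13.9% of all genes), 0 higher, and the median was -0.54.

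DHX37 works in the small subunit processome, where its yeast counterpart releases the U3 snoRNA from the pre-ribosome (chromosome 12, 124946825 to 124989122, minus strand). It stood at 42.4, 42.0 and 39.8 FPKM in DMSO 1, 2 and 3 and at 24.5, 24.9 and 22.9 FPKM in TSN 1, 2 and 3. The 2 groups lay far apart and each was tight, TSN 3 included. Its log2 fold change was -0.76 ± 0.12 SE (limma adjusted p = 0.0103), with 41.4 ± 1.39 FPKM in DMSO and 24.1 ± 1.08 FPKM in TSN (SD, n = 3).

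DDX10, whose yeast counterpart acts on the early small subunit precursor (chromosome 11, 108665025 to 108940930, plus strand), had 11.3, 12.3 and 13.3 FPKM in DMSO and 6.31, 6.72 and 5.18 FPKM in TSN. All TSN values were below all DMSO values, with TSN 3 lowest. The log2 fold change was -0.92 ± 0.16 SE (limma adjusted p = 0.0137). DDX31, a nucleolar factor whose yeast counterpart acts on the large subunit precursor (chromosome 9, 132592997 to 132670401, minus strand), went from 10.8, 11.6 and 12.2 FPKM in DMSO to 6.72, 6.28 and 5.05 FPKM in TSN. Again the groups did not overlap, and the log2 fold change was -0.84 ± 0.16 SE (limma adjusted p = 0.0179). Exons of GTF3C4 on the other strand cover 6.6% of the exon bases of DDX31, and whether reads were counted by strand is not stated in the labels.

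DHX33, which acts in rRNA transcription, came next in the role by adjusted p. It had 12.4, 12.9 and 18.4 FPKM in DMSO and 6.23, 8.90 and 3.53 FPKM in TSN, for a log2 fold change of -1.16 ± 0.32 SE (limma adjusted p = 0.0562). The groups did not overlap, but DMSO 3 was the highest and TSN 3 the lowest library. DDX21, which links rRNA transcription to its processing, showed the widest swing of the same kind. Its values were 104, 108 and 182 FPKM in DMSO and 61.2, 97.2 and 23.7 FPKM in TSN, and TSN 2 lay close below DMSO 1. A log2 fold change of -1.26 ± 0.52 SE therefore carried a large error (limma adjusted p = 0.156).

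DDX18 and DDX55, whose yeast counterparts act on the large subunit precursor, had log2 fold changes of -0.91 ± 0.28 SE and -0.88 ± 0.25 SE (limma adjusted p = 0.0734 and 0.0609). DDX55 went from 51.7, 53.6 and 56.9 FPKM in DMSO to 34.1, 36.5 and 19.3 FPKM in TSN, with no overlap. For DDX56, DDX27, DDX54 and DDX50 the groups also did not overlap, with log2 fold changes of -0.27 to -0.50 and limma adjusted p of 0.126 to 0.164. DDX49, DDX52 and DDX24 overlapped between groups, with log2 fold changes of -0.33, -0.21 and -0.02 (limma adjusted p = 0.412 to 0.961). DDX49 differed in which library stood out, with 61.5 FPKM in TSN 3 against 42.4 and 33.2 FPKM in TSN 1 and 2.

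**Figure D2:**
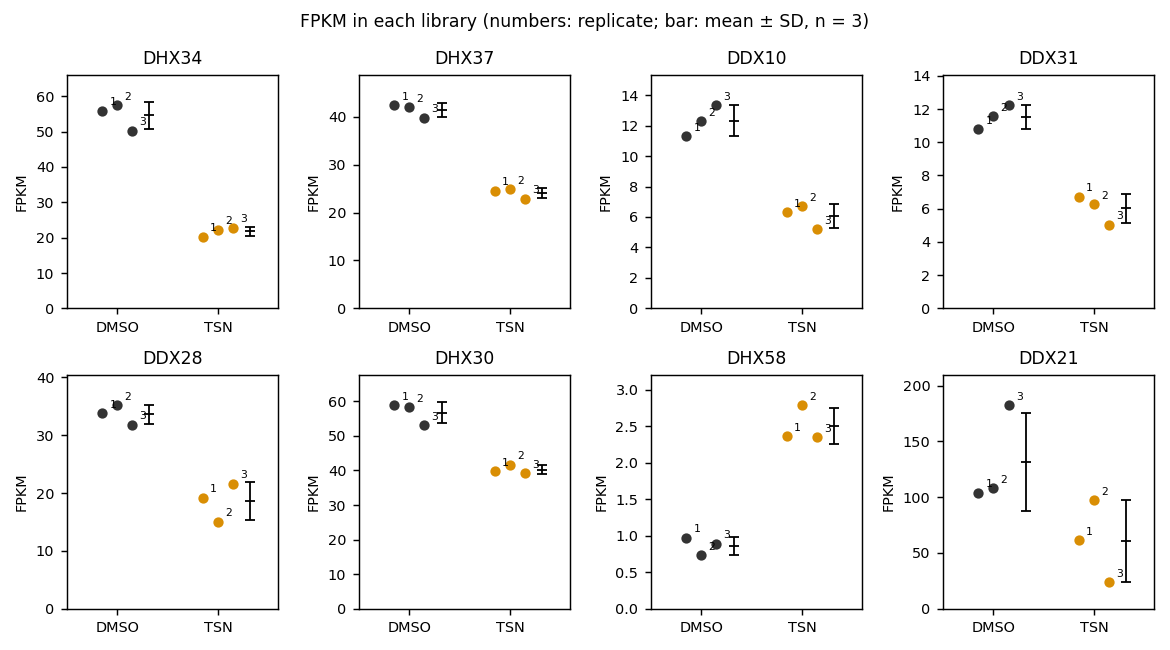
FPKM in each library for the 7 helicase genes called by limma and for DDX21, with the replicate number beside each point and the mean ± SD (n = 3) to the right of each group. In DHX34 and DHX37 the groups lie far apart and are tight, while DDX21 spreads from 23.7 to 97.2 FPKM within TSN.

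Among splicing helicases no difference passed the test. Of 9 tested, 0 were called by limma lower (7.2% of all genes) and 0 higher (7.71%). A list of 9 genes is too short to set 0 apart from those shares. All 9 had a negative log2 fold change, against 58.2% of all genes, with a median of -0.44. In 6 the groups did not overlap, with TSN lower (22.9% of all genes). At an unadjusted p under 0.05, 4 were lower, against 17.1% of all genes. DDX41, a helicase of the catalytic spliceosome that is mutated in inherited myeloid leukaemia, was nearest the threshold. Its values were 72.3, 70.9 and 59.0 FPKM in DMSO and 42.6, 39.3 and 51.3 FPKM in TSN, with a log2 fold change of -0.59 ± 0.16 SE (limma adjusted p = 0.0503). The groups did not overlap, and here DMSO 3 was the lowest and TSN 3 the highest of its group. DDX42, which loads the U2 particle with SF3B1, had 82.4, 87.6 and 107 FPKM in DMSO and 49.9, 66.7 and 31.0 FPKM in TSN (-0.95 ± 0.28 SE, limma adjusted p = 0.0726).

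DDX20, the Gemin3 subunit of the SMN complex that builds spliceosomal particles, went from 9.97 ± 1.66 to 5.40 ± 2.21 FPKM without overlap (limma adjusted p = 0.116). DDX23, the U5 helicase that lets the spliceosome become active, stood at 99.5 ± 5.67 and 73.8 ± 11.8 FPKM, also without overlap (limma adjusted p = 0.118). DHX15 and DHX35 did not overlap between groups either, with log2 fold changes of -0.58 and -0.30 (limma adjusted p = 0.204 and 0.243). DHX38, which acts before the second catalytic step, DHX8, which releases the spliced mRNA, and DDX46, which acts when the branch point is first bound, overlapped, with log2 fold changes of -0.27, -0.26 and -0.06. Without TSN 3 and DMSO 3, 2 of the 9 were lower (13.9% of all genes), the median was -0.19, and DDX46 and DHX8 were at 0.41 and 0.19. DDX46 was also positive after median log ratio scaling (0.04), quantile normalization (0.05) and removal of length and GC trends (0.12).

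The gene of lowest adjusted p among all 44 was DHX34, a factor of nonsense-mediated decay that promotes the phosphorylation of UPF1 (chromosome 19, 47349281 to 47382704, plus strand). It had 55.9, 57.5 and 50.3 FPKM in DMSO and 20.3, 22.3 and 22.9 FPKM in TSN. The groups lay far apart, and TSN 3, the lowest of its group in most members, was here the highest. DHX34 fell from 54.6 ± 3.81 to 21.8 ± 1.33 FPKM, a log2 fold change of -1.28 ± 0.13 SE (limma adjusted p = 0.00303).

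The other 5 helicases of translation and decay did not pass the test, and without TSN 3 and DMSO 3 the median of the role was -0.01 in place of -0.61. DHX29, which helps the small subunit scan structured leaders, went from 12.5, 13.0 and 17.6 FPKM in DMSO to 7.89, 10.8 and 4.71 FPKM in TSN without overlap (-0.85 ± 0.29 SE, limma adjusted p = 0.105). DHX36, which unwinds G-quadruplexes, overlapped and ran from 0.752 FPKM in TSN 3 to 7.99 FPKM in DMSO 3 (-0.82 ± 0.51 SE, limma adjusted p = 0.328). DDX6, the helicase of P-bodies, stood at 21.8 ± 4.16 and 16.7 ± 5.98 FPKM (limma adjusted p = 0.379). DDX3X, which aids initiation on structured mRNAs, stood at 36.7 ± 9.09 and 33.9 ± 17.6 FPKM, and DHX9 at 60.7 ± 8.96 and 63.5 ± 24.4 FPKM. In the last pair TSN 2 was the highest library and TSN 3 the lowest, so the group means hide a wide spread.

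Both mitochondrial members fell, also without TSN 3 and DMSO 3, but neither passed the test after median log ratio scaling (limma adjusted p = 0.0637 for DDX28 and 0.0886 for DHX30). DDX28, which helps assemble the large mitochondrial ribosomal subunit (chromosome 16, 68021274 to 68023442, minus strand), went from 33.8, 35.2 and 31.9 FPKM in DMSO to 19.2, 15.1 and 21.6 FPKM in TSN. The groups did not overlap, with TSN 3 the highest of its group, and the log2 fold change was -0.83 ± 0.16 SE (limma adjusted p = 0.0212). Exons of DUS2 on the other strand cover 22.5% of its exon bases, so its value is less certain. DHX30, which acts on mitochondrial transcripts and ribosomes (chromosome 3, 47802909 to 47850195, plus strand), had 58.8, 58.2 and 53.2 FPKM in DMSO and 39.8, 41.7 and 39.2 FPKM in TSN. It showed no overlap and the smallest log2 fold change of the called members, -0.48 ± 0.12 SE (limma adjusted p = 0.0379).

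DHX58 was the 1 member called higher. It encodes LGP2, a RIG-I-like receptor without signalling domains that tunes the RIG-I and MDA5 sensors and that interferon induces (chromosome 17, 42101404 to 42112733, minus strand). Its level was low, with 0.975, 0.732 and 0.893 FPKM in DMSO and 2.37, 2.79 and 2.35 FPKM in TSN. No values overlapped, and the log2 fold change was 0.91 ± 0.12 SE (limma adjusted p = 0.00724). DHX58 reached the filter only through the TSN libraries, so a gene of this level had to differ to be tested, and its call supports nothing about the list. DDX60L, a relative of DDX60, had 1.56, 1.76 and 2.48 FPKM in DMSO and 2.23, 2.51 and 1.16 FPKM in TSN, which overlapped (limma adjusted p = 0.996). RIGI, which older annotations call DDX58 and which the symbol rule does not take, was at 0.145 to 0.255 FPKM in DMSO and 0.0587 to 0.792 FPKM in TSN and was not tested.

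**Figure D3:**
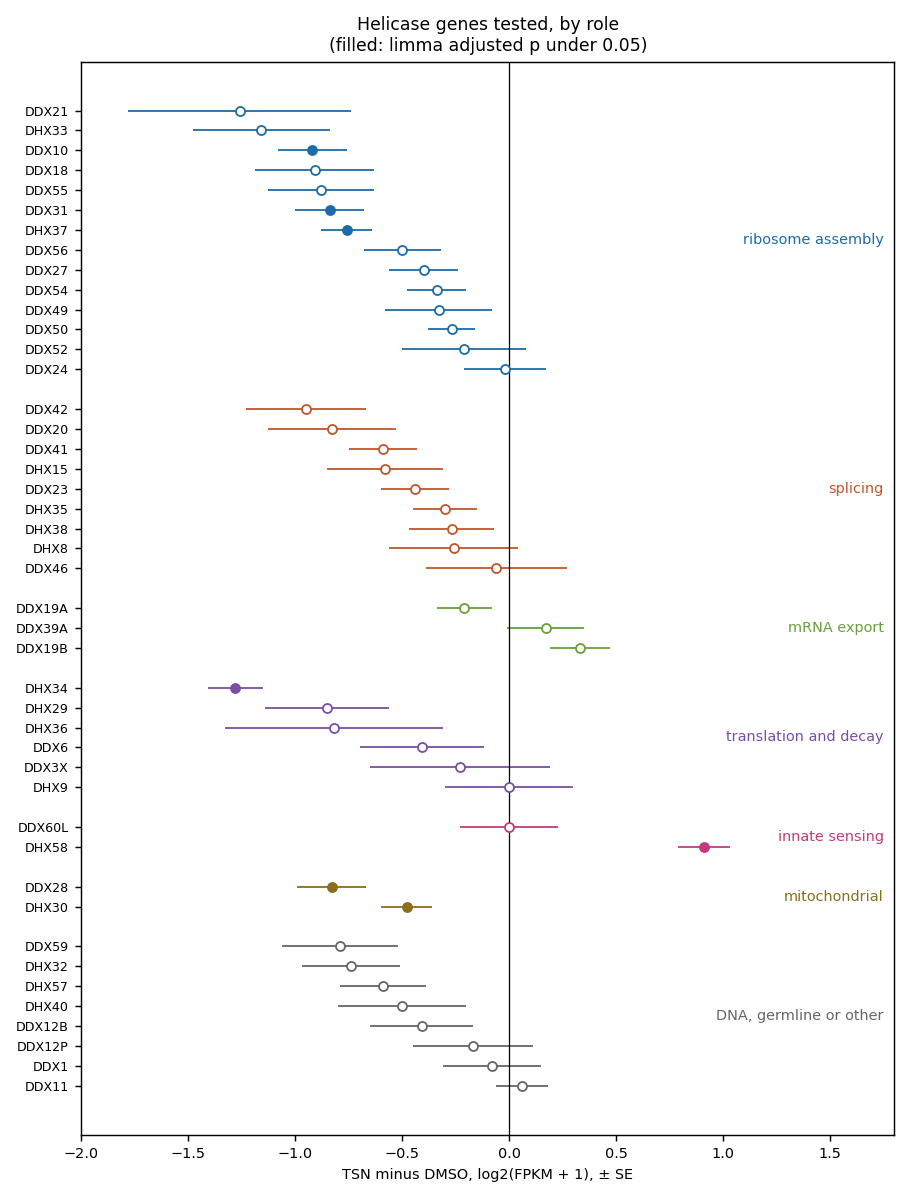
Difference TSN minus DMSO on the log2(FPKM + 1) scale with its SE for the 44 helicase genes tested, grouped by role, with filled points for a limma adjusted p under 0.05. Of these genes, 40 lie left of 0 or round to it, and DHX58 is the 1 filled point to the right.

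Of 3 mRNA export helicases tested, 0 were called by limma lower (7.2% of all genes) or higher (7.71%). At an unadjusted p under 0.05 there were also 0, against 3524 of all 11440 genes in either direction. DDX19A and DDX19B, closely similar neighbours on chromosome 16 that free mRNA at the nuclear pore, moved apart in value. DDX19A had 3.68, 3.80 and 3.70 FPKM in DMSO and 3.31, 3.12 and 2.88 FPKM in TSN. DDX19B had 9.51, 9.78 and 9.03 FPKM in DMSO and 12.8, 10.6 and 13.1 FPKM in TSN. Neither gene overlapped between groups, and the log2 ratio of DDX19A to DDX19B went from -1.14 ± 0.04 to -1.68 ± 0.18 (SD, n = 3), a difference of -0.53 with a two-sided exact permutation p of 0.1. That is the smallest p that 3 libraries against 3 allow, and the p adjusted over the 4 pairs compared was 0.4. Reads that match both copies could be split between them, and other genes' exons cover 26.9% and 19.7% of their exon bases.

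The other paralogue pairs overlapped between groups. The log2 ratio of DDX21 to its paralogue DDX50 was 0.38, 0.35 and 1.14 in DMSO and -0.19, 0.52 and -1.45 in TSN (exact permutation p = 0.3). The difference was -0.99, and -0.19 without TSN 3 and DMSO 3, and TSN 2 lay among the DMSO libraries. DDX50 itself had 79.8, 84.8 and 82.3 FPKM in DMSO and 69.8, 67.6 and 66.6 FPKM in TSN. DDX39A to DDX39B, with DDX39B at 0.121, 0.0605 and 0.11 FPKM in DMSO and 0.112, 0.0613 and 0.0667 FPKM in TSN, differed by 0.20 (exact permutation p = 0.5). With a pseudocount of 0.01 that difference was 0.42. DDX60, at 0.0447, 0.0107 and 0.184 FPKM in DMSO and 0.124, 0.427 and 0.071 FPKM in TSN, differed relative to DDX60L by 0.16 (exact permutation p = 0.5). The added constant sets this last value, which was 0.74 with a pseudocount of 0.1 and 1.5 with 0.01 (exact permutation p = 0.2 and 0.3). All 3 had an adjusted p of 0.5 over the 4 pairs.

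Of the 8 remaining members tested, 0 were called by limma lower (7.2% of all genes) or higher (7.71%). At an unadjusted p under 0.05, 3 were lower (17.1% of all genes). DHX32 had 28.7, 30.2 and 33.5 FPKM in DMSO and 19.9, 23.1 and 12.7 FPKM in TSN (-0.74 ± 0.23 SE, limma adjusted p = 0.0794). DHX57 had 6.52, 6.86 and 8.31 FPKM in DMSO and 4.71, 5.49 and 3.36 FPKM in TSN (-0.59 ± 0.20 SE, limma adjusted p = 0.0953). The third, DDX59, stood at 8.28 ± 0.734 and 4.57 ± 1.84 FPKM (limma adjusted p = 0.104). In none of the 3 did the groups overlap, and in all 3 TSN 3 was the lowest library. DHX40 and DDX1, a subunit of the tRNA ligase complex, overlapped, with log2 fold changes of -0.50 and -0.08. DDX11, a DNA helicase of sister chromatid cohesion, had 44.4, 47.8 and 44.2 FPKM in DMSO and 48.5, 49.5 and 44.2 FPKM in TSN, one of the steadiest members. Its copies DDX12P and DDX12B stood at 27.2 ± 2.32 and 15.1 ± 0.725 FPKM in DMSO and at 25.2 ± 9.25 and 11.6 ± 3.71 FPKM in TSN. GENCODE lists both copies as pseudogenes, and reads of the 3 near-identical genes cannot be told apart with certainty.

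**Figure D4:**
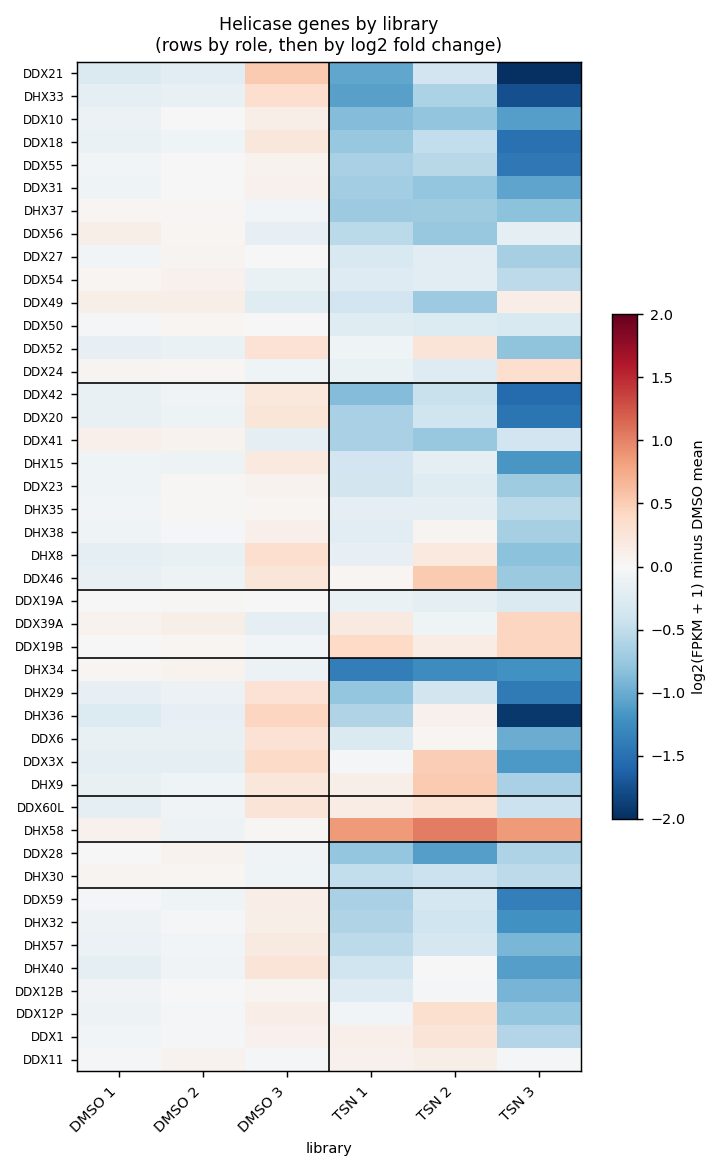
log2(FPKM + 1) minus the DMSO mean for the 44 helicase genes tested (rows, by role with lines between roles) in the 6 libraries (columns). TSN 3 is the darkest blue column for most rows, while DHX34, DHX37 and DHX30 have about the same shade in all 3 TSN libraries and DHX58 is red in all 3.

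The number of members called depended on the libraries kept and on scaling, as did the number of all genes. After scaling by median log ratios limma called 9 lower (7.78% of all genes) and 1 higher (10.2% of all genes). Only 4 of the 6 genes named above were among these 9, without DDX28 and DHX30. The calls after quantile normalization were 13 lower (9.44%) and 1 higher (10.2%). The count was 1 lower, DHX34, without DMSO 1, without DMSO 2 or without DMSO 3, when 0.641%, 0.401% and 1.28% of all genes were called lower. Without TSN 1 limma called 0 members in either direction and 0.00903% of all genes lower. At an unadjusted p under 0.05, 14 of 43 members were lower there and 0 higher, and 2364 of all 11074 genes passed in either direction. Without TSN 2 it was 13 lower, against 9.44% of all genes, and 0 higher, against 6.71%. Without TSN 3 it was also 13 lower, against 11.6%, and 0 higher, against 11%. With both TSN 3 and DMSO 3 left out, 14 of 43 members were lower (32.6%, against 13.9% of all genes), and these held all 6 named above. DDX18, DDX41, DDX42, DDX49, DDX55, DDX56, DHX32 and DHX33 joined them. DHX58 was not tested there, or in any case without a TSN library, since it then fell short of the filter. With trends of each library along exon length and GC content taken out, an alternative added after seeing the data, 19 of 44 members were lower (43.2%, against 14.8% of all genes) and DHX58 was higher (11.4% of all genes higher). The 6 lower genes were also among those 19.

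**Figure D5:**
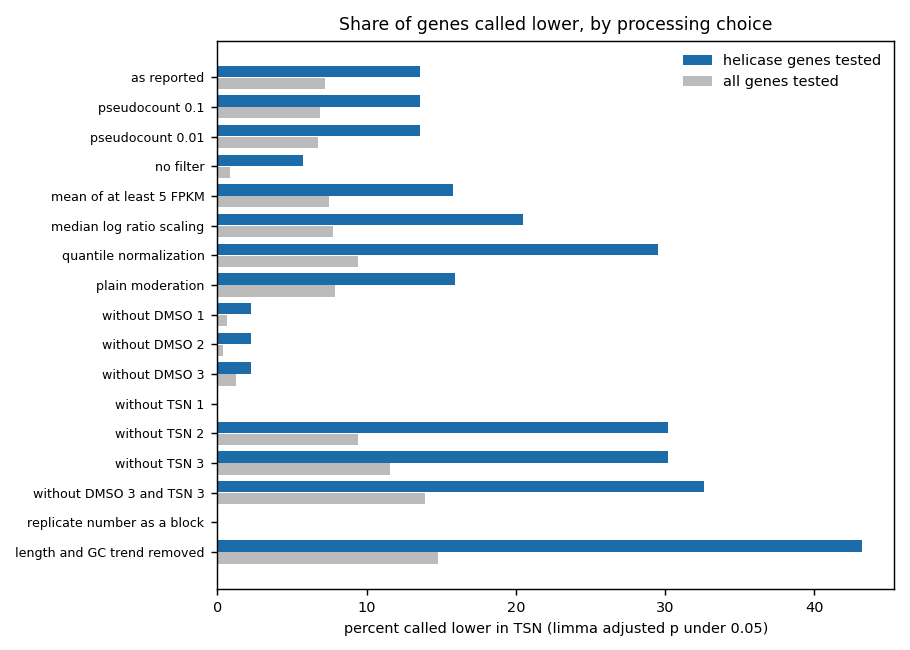
Share of helicase genes tested (blue) and of all genes tested (grey) called lower in TSN by limma at an adjusted p under 0.05, for the reported test and 16 alternatives. The blue bar is longer than the grey one wherever the helicase share is above 0, and both are at or near 0 without TSN 1 and with the replicate number as a block.

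Of the 6 lower genes, DHX34 was called in 14 of 16 alternatives, with a log2 fold change of -1.44 to -1.19 and a limma adjusted p of 0.000659 to 0.104. DHX37 and DDX10 were each called in 11, DDX31 in 10, DDX28 in 9 and DHX30 in 8 of 16. The log2 fold change of these 5 stayed between -1.05 and -0.39, and their limma adjusted p between 0.00239 and 0.256. DHX58 was called in 9 of the 11 alternatives in which it was tested (0.75 to 1.52, limma adjusted p = 0.00417 to 0.126).

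Known partners of these helicases moved in part as well. In the list of small subunit processome and large subunit partners, 8 of 28 tested genes were lower, against 7.2% of all genes, and 0 higher, with a median log2 fold change of -0.65 against -0.10 over all genes. Without TSN 3 and DMSO 3, 14 of 28 were lower (13.9% of all genes), with a median of -0.51. RRS1, which brings the 5S particle to the large subunit, had 40.4 ± 1.70 FPKM in DMSO and 10.8 ± 1.91 FPKM in TSN (-1.82 ± 0.16 SE, limma adjusted p = 0.00253). UTP15, a small subunit processome protein, had 9.66 ± 0.531 FPKM in DMSO and 2.98 ± 0.768 FPKM in TSN (-1.44 ± 0.19 SE, limma adjusted p = 0.00619). UTP14A, whose yeast counterpart switches on the counterpart of DHX37, was also among the 8 (-0.94, limma adjusted p = 0.0152) and was singled out after its value was seen.

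Of 6 tested genes of the SMN complex that holds DDX20, 3 were lower (7.2% of all genes) and 0 higher (7.71%), with a median of -0.95. Without TSN 3 and DMSO 3, 4 of 6 were lower (13.9% of all genes). GEMIN4 had 22.2, 22.7 and 21.2 FPKM in DMSO and 10.6, 10.7 and 10.3 FPKM in TSN (-1.0 ± 0.12 SE, limma adjusted p = 0.00527). GEMIN6 had 12.1 ± 0.629 FPKM in DMSO and 4.94 ± 0.663 FPKM in TSN (-1.15 ± 0.15 SE, limma adjusted p = 0.00615). The third was GEMIN8 (-0.92, limma adjusted p = 0.00969). The list of TREX and exon junction partners is not limited to partners of DDX39A and DDX39B. Of its 13 tested genes 2 were lower, against 7.2% of all genes, and 0 higher. Without TSN 3 and DMSO 3, 4 of 13 were lower, against 13.9%. The 2 were the THO subunit THOC1, from 34.2 ± 0.975 to 21.4 ± 3.89 FPKM (limma adjusted p = 0.0402), and the junction protein RBM8A, from 9.53 ± 0.727 to 5.76 ± 0.894 FPKM (limma adjusted p = 0.0412).

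G-patch cofactors, which switch on DEAH-box helicases, had 0 calls by limma among 15 tested in either direction, with a median of -0.35. Over all genes 7.2% were called lower and 7.71% higher. At an unadjusted p under 0.05 there were 5 of the 15 in either direction, against 3524 of all 11440 genes. Without TSN 3 and DMSO 3, 2 were called lower (13.9% of all genes), with a median of -0.24. The P-body and CCR4-NOT partners of DDX6 had 0 calls among 11 against the same shares, with 0 at an unadjusted p under 0.05 and a median of -0.14. Without TSN 3 and DMSO 3 their median was 0.23, with 1 of 11 called higher (13.7% of all genes) and 0 lower (13.9%). Every TSN value then lay above every DMSO value in 4 (33.5% of all genes) and below in 2 (34.9%). The tRNA ligase complex of DDX1 likewise had 0 calls among 6 by limma, with 0 at an unadjusted p under 0.05. Its median was 0.12, and -0.03 without TSN 3 and DMSO 3, again with 0 calls. In RIG-I-like receptor signalling and linked sensors, 1 of 9 tested genes was higher, against 7.71% of all genes, and 0 lower. Without TSN 3 and DMSO 3, 3 of 9 were higher, against 13.7% of all genes, and 0 lower. The list is short and was not tested as a list. The 1 gene called with all libraries was CGAS, the sensor of DNA in the cytosol. It had 11.5 ± 1.37 FPKM in DMSO and 20.6 ± 1.78 FPKM in TSN (0.79 ± 0.15 SE, limma adjusted p = 0.0191). IFIH1, which encodes MDA5, the sensor of long double-stranded RNA, stood at 4.10 ± 0.561 and 5.38 ± 1.55 FPKM (limma adjusted p = 0.405), with TSN 3 below every DMSO library.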

How the data were processed

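RNA-seq of 3 DMSO and 3 TSN libraries was analysed from 1 table of the whole series, in which the authors deposited FPKM values for 30741 genes. That unit was read from the values. In genes with a single exon, 95.8% to 96.5% of low values, multiplied by exon length, were a multiple of 1 library-wide step to within 0.1 of it, which gave the depth. GRCh38 and DESeq2 1.26.0 are named per the submitters' processing notes, and no source used here names the aligner or the counter. The test was limma 3.58.1 (R 4.3.3) with variance trend and robust moderation, on the log2 of the deposited FPKM plus 1. It took every gene that reached 1 FPKM in 3 or more libraries, and Benjamini-Hochberg adjustment ran over all 11440 of them. Fold changes on that scale understate the change of low genes. Pair ratios were tested by exact permutation, two-sided. Places and overlaps came from GENCODE 29 (GRCh38), which holds 93.7% of the genes, and promoters from RefSeq. The strand of all 45 member promoters was checked against GENCODE transcripts. For 40 the bases after the RefSeq start were found in a transcript of the gene on that strand, and the rest were not matched. Protein sequences were not used here. Python 3.11.15, pandas 2.3.3, numpy 2.4.6 and matplotlib 3.10.9 served for tables and figures.

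The labels call the libraries biological replicates without saying whether they were separate cultures, so p-values measure the spread between these libraries. DMSO 1 and DMSO 2, the closest pair, differed by more than counting error (chi-square divided by degrees of freedom 10.2, 15219 genes), so they are not 1 library deposited under 2 names. Whether they share a culture was not tested. The members, roles and partner lists were chosen with earlier results of these data known. Values in every library were given for called members, the 2 tested members of lowest adjusted p in each role, the 3 of highest mean and the paralogue pairs, and after seeing values also for DHX33, DDX55 and DDX11. Partner lists add up to 2 called genes in each direction. Alternatives were a pseudocount of 0.1 or 0.01, dropping the filter, asking for a mean of 5 FPKM or more, median log ratio scaling, quantile normalization, moderation without trend or robust weights, leaving out each library or both TSN 3 and DMSO 3, and the replicate number as a block. Removal of length and GC trends, by splines with 5 degrees of freedom, was added after seeing the data.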

Additional observations from a re-analysis of the deposited data

How the results depend on the processing

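The 44 members kept their median below 0 under every alternative run, from -0.53 without TSN 2 to -0.26 without TSN 3. The median over all genes moved as well, with -0.17 without TSN 2 and -0.04 without TSN 3. Negative values stayed in the majority, with 32 of 43 members as the smallest count. The number called lower (6 as reported) was 3 with no filter, 13 after quantile normalization, 9 after scaling by median log ratios, 14 without DMSO 3 and TSN 3, 19 with length and GC trends removed, and 0 to 13 with 1 library left out. The number called higher (1) was 0 among genes averaging 5 FPKM or more and 0 without DMSO 3 and TSN 3, where DHX58 was not tested, and 0 to 1 with 1 library left out. Over all genes, 1706 were called as reported, 777 with no filter, 1002 among genes averaging 5 FPKM or more, 2978 without DMSO 3 and TSN 3, 2949 with length and GC trends removed and 24 to 2513 with 1 library left out. A smaller or larger set of genes tested and fewer libraries change these counts by construction, and other causes were not tested.

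Same-numbered libraries deviated from their group means in opposite ways (r over genes = -0.32, -0.65 and -0.83 for numbers 1, 2 and 3). Libraries of unlike number gave r from -0.76 (DMSO 1 with TSN 2) to 0.87 (DMSO 3 with TSN 2). Deviations of 3 libraries from their own mean depend on each other. These values therefore cannot tell whether same-numbered libraries were handled together, and the labels give no pairing. With the replicate number as a block, limma called 0 members lower, 0 higher and 0 of all genes, with 12 members lower and 1 higher, and 2121 of all genes, at an unadjusted p under 0.05.

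No called member changed sign. Uncalled members did, with these log2 fold changes. Scaling by median log ratios gave DDX1 0.02, DDX24 0.08, DDX46 0.04, DDX60L 0.09 and DHX9 0.09. Quantile normalization gave DDX1 0.03, DDX24 0.03, DDX46 0.05 and DHX9 0.02. Length and GC removal gave DDX11 -0.02, DDX24 0.06, DDX46 0.12, DDX60L 0.19 and DHX9 0.10. Without DMSO 3 and TSN 3, DDX1 was at 0.22, DDX12P at 0.19, DDX39A at -0.05, DDX3X at 0.42, DDX46 at 0.41, DDX52 at 0.23, DDX6 at 0.02, DDX60L at 0.34, DHX8 at 0.19 and DHX9 at 0.43, and the log2 ratio difference was -0.05 for DDX39A to DDX39B and -0.04 for DDX60 to DDX60L. With 1 library left out, sign changes occurred in DDX1 (-0.24 to 0.18), DDX12P (-0.41 to 0.13), DDX24 (-0.20 to 0.11), DDX3X (-0.59 to 0.22), DDX46 (-0.35 to 0.28), DDX52 (-0.45 to 0.09), DDX60L (-0.14 to 0.21), DHX8 (-0.50 to 0.02) and DHX9 (-0.26 to 0.32). At a depth of about 1 fragment per 0.0198 to 0.0269 FPKM on 1 kb, members below 0.1 FPKM rest on few fragments.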

Other observations

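Of 13 tested RNA helicases with names other than DDX or DHX, 1 was lower (7.2% of all genes) and 2 were higher (7.71% of all genes) by limma, with a median log2 fold change of -0.47. Without TSN 3 and DMSO 3 the median of this list was -0.01, the same as over all genes. The calls there were 1 lower (13.9% of all genes) and 2 higher (13.7%). SUPV3L1, the mitochondrial helicase of RNA turnover, went from 69.9 ± 3.40 to 38.1 ± 0.650 FPKM (-0.86 ± 0.11 SE, limma adjusted p = 0.0066). MOV10, an antiviral helicase, rose, with 6.63 ± 0.0855 FPKM in DMSO and 13.4 ± 1.63 FPKM in TSN (0.91 ± 0.15 SE, limma adjusted p = 0.0116). HELZ2, a nuclear receptor coactivator that interferon induces, rose too, with 1.36 ± 0.148 FPKM in DMSO and 4.42 ± 1.85 FPKM in TSN (1.14 ± 0.27 SE, limma adjusted p = 0.0363). EIF4A3, the helicase of the exon junction, was listed at 0.582 to 0.812 FPKM over all libraries and was not tested. It was singled out after its values were seen.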
